A study of Mus musculus with 31 samples.

Results

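The genes of the proteasome, the multi-subunit protease that degrades ubiquitin-tagged proteins, were followed in bulk RNA-seq of mouse masseter muscle (MM) after injection of complete Freund's adjuvant (CFA) or collagenase type 2 (Col). Members were all gene symbols made of Psma, Psmb, Psmc, Psmd or Psme and a number that reached 10 counts in 3 or more of all 31 libraries. Of 43 such symbols, 41 passed, out of 15526 genes that passed the same minimum and 22609 symbols in the count tables. The members comprised 36 constitutive genes and 5 genes of the immunoproteasome and its activator, namely Psmb8, Psmb9, Psmb10, Psme1 and Psme2. Psma8, a testis form of the alpha ring, had 10 counts in 2 libraries and at most 10 anywhere, and Psmb11, the thymus catalytic subunit, had at most 5 counts in any library.

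The proteasome core is a barrel whose outer rings are built from alpha subunits (Psma genes) and whose inner rings are built from beta subunits (Psmb genes), of which Psmb5, Psmb6 and Psmb7 carry the catalytic sites. The regulatory particle that caps the barrel consists of a base, with the Psmc ATPases that unfold and thread the substrate, and a lid, with most Psmd subunits and the deubiquitinase Psmd14. Under interferon-gamma, newly assembled cores take up Psmb8 in place of Psmb5, Psmb9 in place of Psmb6 and Psmb10 in place of Psmb7, and Psme1 and Psme2 form the PA28 cap, which together favour peptides for MHC class I. Immune cells carry this form without stimulation, whereas healthy skeletal muscle fibres are known mainly for the constitutive form, which also serves protein breakdown during atrophy.

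The promoters of Psmb8, of Psmb5, the subunit that Psmb8 replaces, and of Psmb9 are shown because Psmb8 and Psmb9 are known to be induced at transcription. Sequences are from RefSeq on build GRCm38.p6, which held promoters (250 bases before to 50 after the start) for 35 of the 41 members, and bases within any annotated gene are left out. The capitals mark a match to TTCNNNGAA, the core of a STAT site, in Psmb8, and a match to TGACNNNGC, the core of an antioxidant response element of the Nfe2 family, in Psmb5. The Psmb9 stretch is the interval of 225 bases between the RefSeq starts of Psmb9 and of Tap1, the peptide transporter gene that runs in the opposite direction, and it held no match.
Psmb8, chr17:34197945-34198194, plus strand: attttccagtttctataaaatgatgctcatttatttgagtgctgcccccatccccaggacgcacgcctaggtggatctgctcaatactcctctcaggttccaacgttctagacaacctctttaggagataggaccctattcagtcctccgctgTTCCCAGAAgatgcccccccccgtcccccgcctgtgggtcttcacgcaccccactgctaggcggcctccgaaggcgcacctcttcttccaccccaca
Psmb9, chr17:34187331-34187555, minus strand: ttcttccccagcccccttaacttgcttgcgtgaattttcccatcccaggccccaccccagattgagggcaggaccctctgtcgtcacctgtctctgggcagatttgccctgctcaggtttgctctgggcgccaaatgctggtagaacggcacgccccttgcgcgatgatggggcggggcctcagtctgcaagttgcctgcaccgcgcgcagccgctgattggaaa
Psmb5, chr14:54617996-54618245, minus strand: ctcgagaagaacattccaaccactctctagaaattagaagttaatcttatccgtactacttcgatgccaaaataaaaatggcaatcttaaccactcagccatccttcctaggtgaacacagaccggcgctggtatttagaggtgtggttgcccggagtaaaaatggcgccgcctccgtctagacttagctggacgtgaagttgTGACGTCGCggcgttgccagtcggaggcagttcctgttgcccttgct
Searched on both strands of the full windows, TTCNNNGAA was present in 8.3% of all 32851 promoters and, among members, in those of Psmb8 and Psmd2. The core of an interferon-stimulated response element, GAAA, any 2 bases and GAAA again, was present in 3.44% of all promoters and in those of Psmb3, Psmd4, Psmd9 and Psme1. TGACNNNGC was present in 12.39% of all promoters and in those of Psmb5, Psmb6, Psmc6, Psmd9, Psmd12 and Psme4. A match is a description of the letters and not a site.

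All 31 mice were male C57BL/6J, each gave 1 library, and all labels name dissected MM with all its cells. The CFA experiment had 3 vehicle-treated mice, 3 mice at 1d post-CFA and 3 mice at 5d post-CFA. The Col experiment had 3 vehicle-treated mice (Contr), 4 mice each in the 0.2U Col groups labelled 1C and RPC, and 4, 3 and 4 mice labelled 2d, 6d and 12d post 10U Col. The labels do not give the days of the 1C and RPC groups or when vehicle-treated mice were collected, and the study's text dates the 2d and 12d groups differently. Each treated group was compared with the vehicle group of its own experiment, and 6d with 2d and 12d with 6d of 10U Col.

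Libraries held 14843778 to 29076671 reads assigned to genes (median 20834472). The 11 libraries of 10U Col had 0.331 to 0.399% of reads called ambiguous between genes against 0.0757 to 0.138% in the other 20, Contr included, so a difference in counting cannot be told apart from 10U Col in any comparison with Contr, whereas 6d against 2d and 12d against 6d lie within this set. Replicate 4 of 10U Col 2d stood apart from its group: its summed constitutive members were 3049 CPM (counts per 1000000 reads on genes, scaled by TMM) against 5119 to 5940 CPM, and its summed skeletal muscle markers were 77170 CPM against 33950 to 43560 CPM. Replicate 1 of CFA 1d also stood apart, with 7906 CPM of summed constitutive members against 4355 and 4775 CPM. In the CFA vehicle group, replicate 3 had 3513 CPM against 5262 and 5339 CPM. Its skeletal muscle markers summed to 113700 CPM against 235400 and 243600 CPM. In Contr, replicate 3 had 3241 CPM of constitutive members against 4344 and 4599 CPM. All 10 skeletal muscle markers were present in every group (93420 to 243600 CPM in sum outside the 10U groups), and salivary gland markers ranged from 11.01 to 290600 CPM in sum between libraries. In whole tissue, fewer cells of a type and less RNA per cell cannot be told apart.

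The constitutive members formed the abundant set in MM and the immuno members the scarce one. By RPKM (CPM divided by the kilobases of exon), the median over 31 mice was highest for Psmb7, at 131.7 RPKM, and 29 of the 36 constitutive members lay above every immuno member. Psme1 (16.41 RPKM) was 30th and Psmb10 (13.69 RPKM) 31st of the 41 members, Psmb8 (6.456 RPKM) was 37th, Psme2 (1.992 RPKM) 39th and Psmb9 (1.91 RPKM) last. Psmb9 and Psme2 held places 39 to 41 in every mouse, Psmb8 places 32 to 38, and Psmb7 places 1 to 5. These levels are per uniquely aligned read, and the share of 50-base transcript windows that occur at more than 1 place in mm9 was 63.5% for Psmb3, 56.8% for Psmb5, 56.6% for Psma5, 54.9% for Psme2, 33.9% for Psma4 and 29.4% for Psma3, so these levels are understated, whereas it was 0% for Psmb8 and Psmb10 and 0.715% for Psmb9. RPKM divides by all annotated exon bases, 3660 for Psmb9, 2736 for Psmb8, 1872 for Psmb6 and 922 for Psmb5. Their protein-coding transcripts gave 1679, 1623, 749 and 873 windows of 50 bases. The places above and the ratios per kb below therefore depend on the length used. In the mm9 gene models, unlike RefSeq, Psmb9 overlaps the start of Tap1 on the other strand, and whether the counting used the strand was not given.

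**Figure D1:**
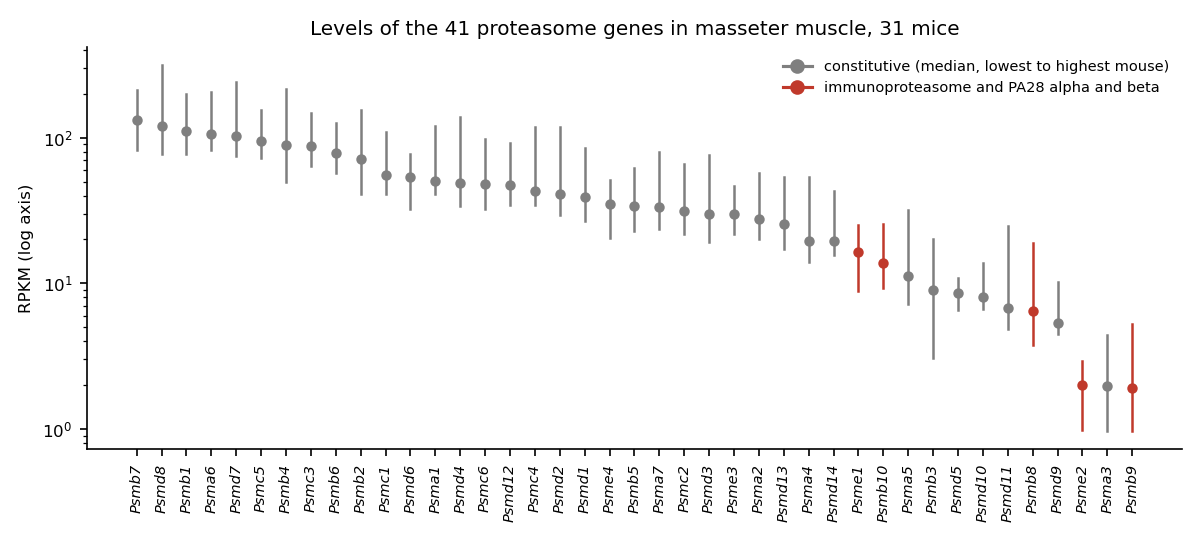
RPKM (log axis) of each of the 41 members, ordered by median over 31 mice; points are medians and lines run from the lowest to the highest mouse. The 5 immuno members sit at places 30, 31, 37, 39 and 41, from Psme1 at 16.41 to Psmb9 at 1.91 RPKM.

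Across the 31 libraries the constitutive members varied together and apart from the immuno members. With each mouse's log2 CPM centred on its own vehicle mean, the median Pearson r was 0.739 over 630 pairs of constitutive members, 0.6 over 10 pairs of immuno members and -0.0712 over the 180 mixed pairs; the points share libraries, depth and scaling, and r is given as a description. The spread of log2 CPM over the libraries (SD) had a median of 0.375 for constitutive and 0.38 for immuno members, against 0.436 over all 15526 genes.

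**Figure D2:**
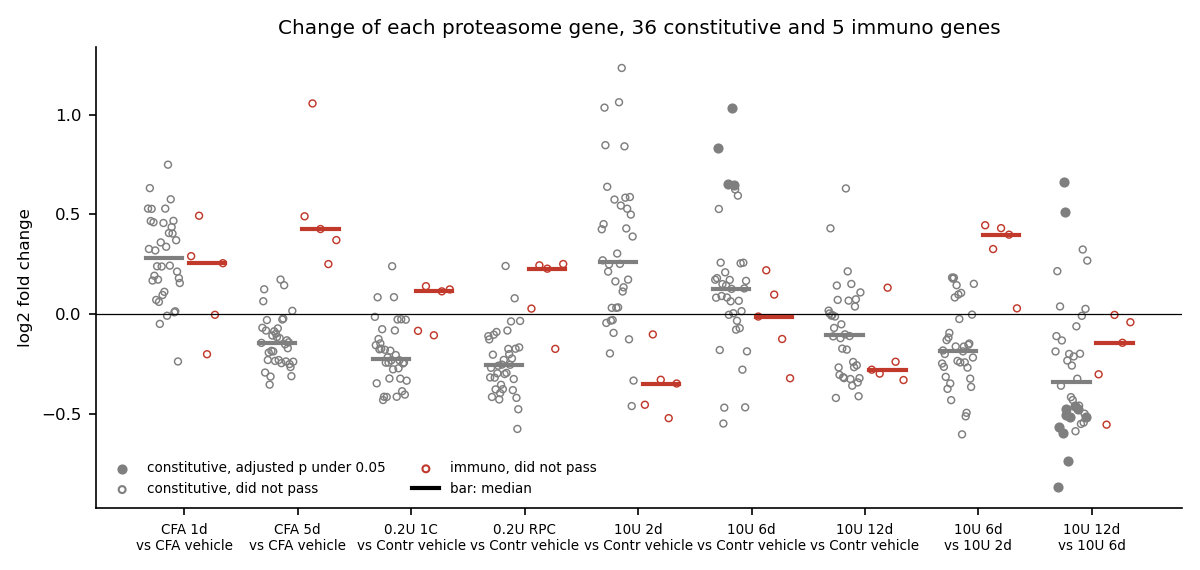
Log2 fold change of the 36 constitutive (grey) and 5 immuno members (red) in each of the 9 comparisons; filled points passed an adjusted p of 0.05 and bars are medians. Filled points occur at 6d against Contr (4 higher) and at 12d against 6d (2 higher and 10 lower), and no immuno member is filled.

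At 1d post-CFA, when the adjuvant has just been injected, no proteasome gene passed the test. EdgeR's quasi-likelihood test with Benjamini-Hochberg adjustment over 13944 genes called 0 of 41 members, and 0% of all genes in either direction, as did DESeq2 for the members; at an unadjusted p under 0.05 where 4.22% of all genes lay, the only member was Psma3, an alpha ring subunit with a log2 fold change of 0.63 ± 0.27 (SE), named after its value was seen. The constitutive members had a median log2 fold change of 0.28 against -0.01 over all genes, and 33 of 36 were positive, but without replicate 1 of CFA 1d this median was -0.04. Psmb8, the inducible counterpart of Psmb5, was at 8.994, 6.426 and 13.03 RPKM at 1d and 5.366, 8.701 and 6.164 RPKM in vehicle-treated mice, a log2 fold change of 0.49 ± 0.30 (adjusted p = 0.924), with overlapping groups.

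At 5d post-CFA the immuno members were all on the positive side and the constitutive members mostly on the negative side, and none passed the test in edgeR. The background was 1.06% of 14026 genes called higher and 0.0428% called lower. The 5 immuno members had log2 fold changes from 0.25 to 1.06 with a median of 0.43, against a median of -0.14 for constitutive members, of which 31 of 36 were negative. Psmb8 was the only member under an unadjusted p of 0.05, as were 10.3% of all genes in the higher direction. DESeq2's Wald test called Psmb8 with an adjusted p of 0.0406, where 719 of 17749 genes were called higher. These results depended on replicate 3 of the vehicle group. When it was left out, edgeR called 1631 of 13819 genes higher and 531 lower. The constitutive median was then -0.28, with 1 constitutive member called lower and no immuno member called.

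Psmb8 lies at chr17:34334666-34338399 on the plus strand of mm9, next to Tap1 and Tap2. It was at 9.522, 11.43 and 18.89 RPKM at 5d, all above the highest vehicle-treated mouse (8.701 RPKM). The means were 13.3 ± 4.95 and 6.74 ± 1.74 RPKM (SD, n = 3 each), and edgeR's log2 fold change was 1.06 ± 0.30 (SE; adjusted p = 0.155). With CPM scaled within the comparison, the groups did not overlap, in the higher direction, for Psmb8, Psme2 and 1 constitutive member, Psmd14, and for 14% of all genes; scaled over all 31 libraries, those of Psmd14 overlapped. Without replicate 3 of CFA 5d the log2 fold change was 0.70.

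Psmb9 (chr17:34318932-34324697, minus strand) was at 2.644, 3.313 and 5.253 RPKM at 5d and 1.978, 4.136 and 2.704 RPKM in vehicle-treated mice, so the groups overlapped. Psmb10 (chr8:108459628-108462292, minus strand) was at 14.84, 17.62 and 25.52 RPKM at 5d against 13.69, 18.19 and 11.76 RPKM. Replicate 3 was the highest of the 5d mice for Psmb8, Psmb9, Psmb10 and Psme1. The PA28 subunits changed by 0.25 ± 0.25 (Psme1, adjusted p = 0.728) and 0.37 ± 0.25 (Psme2, adjusted p = 0.586) on the log2 scale.

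Markers of other tissue moved with the 5d group. The summed salivary gland markers were 132300 to 166400 CPM at 5d against 105.8 to 15360 CPM in vehicle-treated mice. All 9 markers were apart and higher, against 14% of all genes, and none of the 9 was at 0 in all mice of either group. The summed macrophage markers were 315.9 to 621.2 CPM against 114.7 to 420 CPM, with 4 of 8 apart, and the leukocyte markers 166.5 to 289.6 CPM against 29.49 to 254.6 CPM. The T and NK cell markers summed to 5.36 to 13.19 CPM against 0.286 to 6.004 CPM, with 3 of the 5 tested apart and higher and none called. The part of these cells in the Psmb8 values was not tested.

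**Figure D3:**
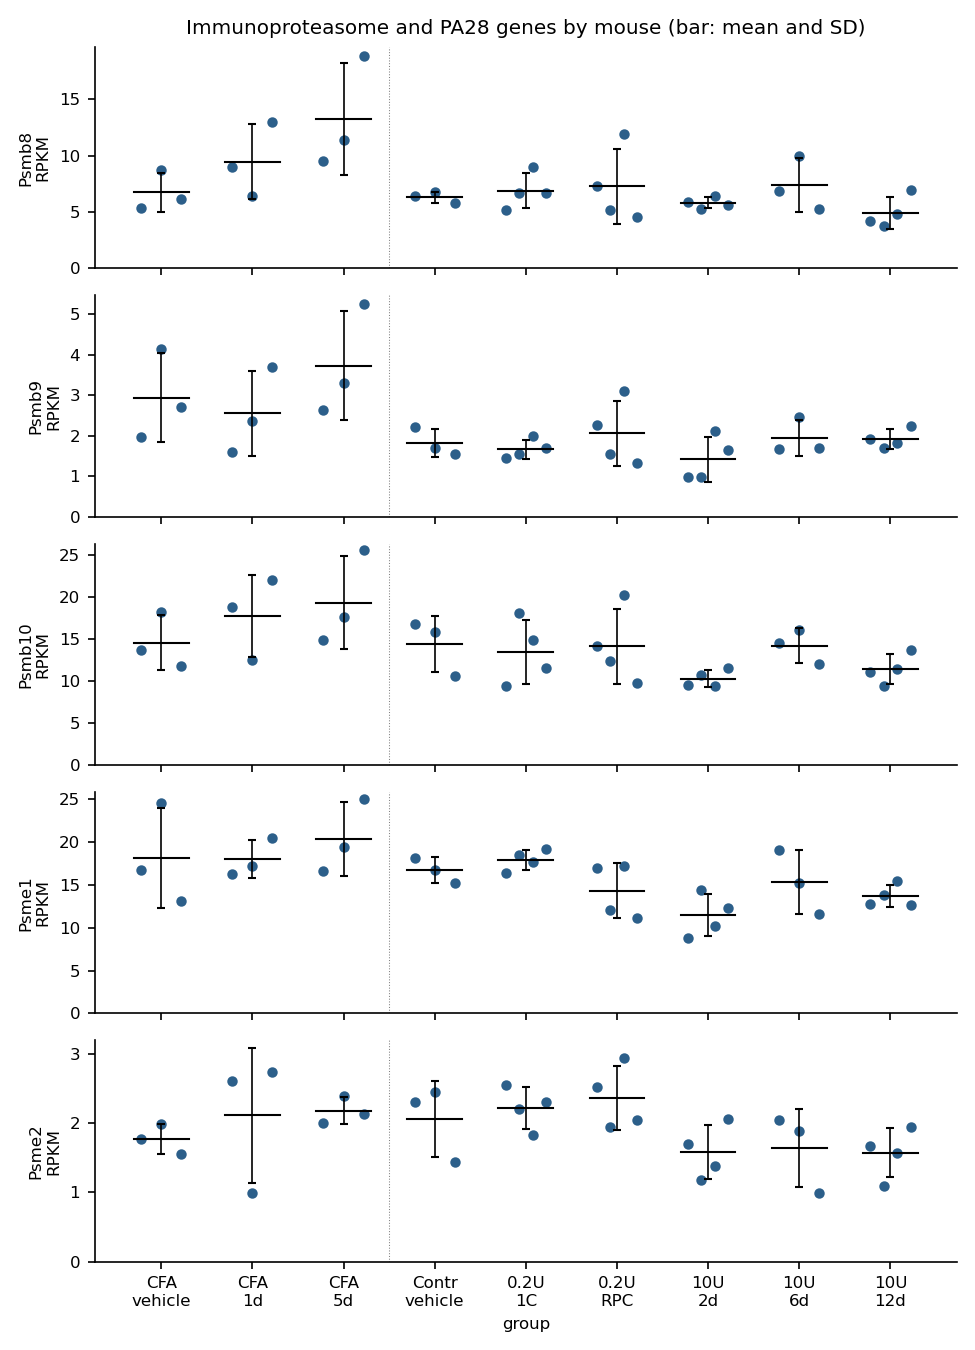
RPKM of the 5 immuno members in each mouse of the 9 groups (points), with mean and SD; the dotted line separates the CFA and Col experiments. Psmb8 in the 3 mice at 5d post-CFA, from 9.522 to 18.89 RPKM, sits above its vehicle group, while every Col group overlaps Contr for Psmb8, Psmb9 and Psmb10. Psme1 at 2d post 10U Col, from 8.821 to 14.45 RPKM, sits below Contr, from 15.19 to 18.2 RPKM.

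Because each immuno subunit takes the place of 1 constitutive subunit, the log2 ratio of the pair within each mouse was compared as well; it does not depend on library scaling. At 5d post-CFA the Psmb8/Psmb5 ratio of counts per kb was 0.315 to 0.59 against 0.131 to 0.236 in vehicle-treated mice, 2.25-fold higher on the mean log2 scale (difference 1.17 ± 0.38, SE, with a pseudocount of 0.5). The exact two-sided permutation test gave p = 0.1, the smallest value that 3 against 3 mice allow, and 0.7 after adjustment over the 21 ratio tests. Psmb10/Psmb7 differed by 0.63 ± 0.28 on the log2 scale, also with groups apart and exact permutation p = 0.1, and Psmb9/Psmb6 differed by 0.51 ± 0.46 with overlapping groups.

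After 10U Col the 3 ratios differed from Contr by between -0.38 and 0.42 on the log2 scale at 2d, 6d and 12d, all with overlapping groups. In the RPC group Psmb9/Psmb6 was 0.57 ± 0.31 above Contr (exact permutation p = 0.143), with its lowest mouse at 0.02351 and the highest Contr mouse at 0.0235. Adjusted over 21, every ratio test had p of at least 0.7.

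**Figure D4:**
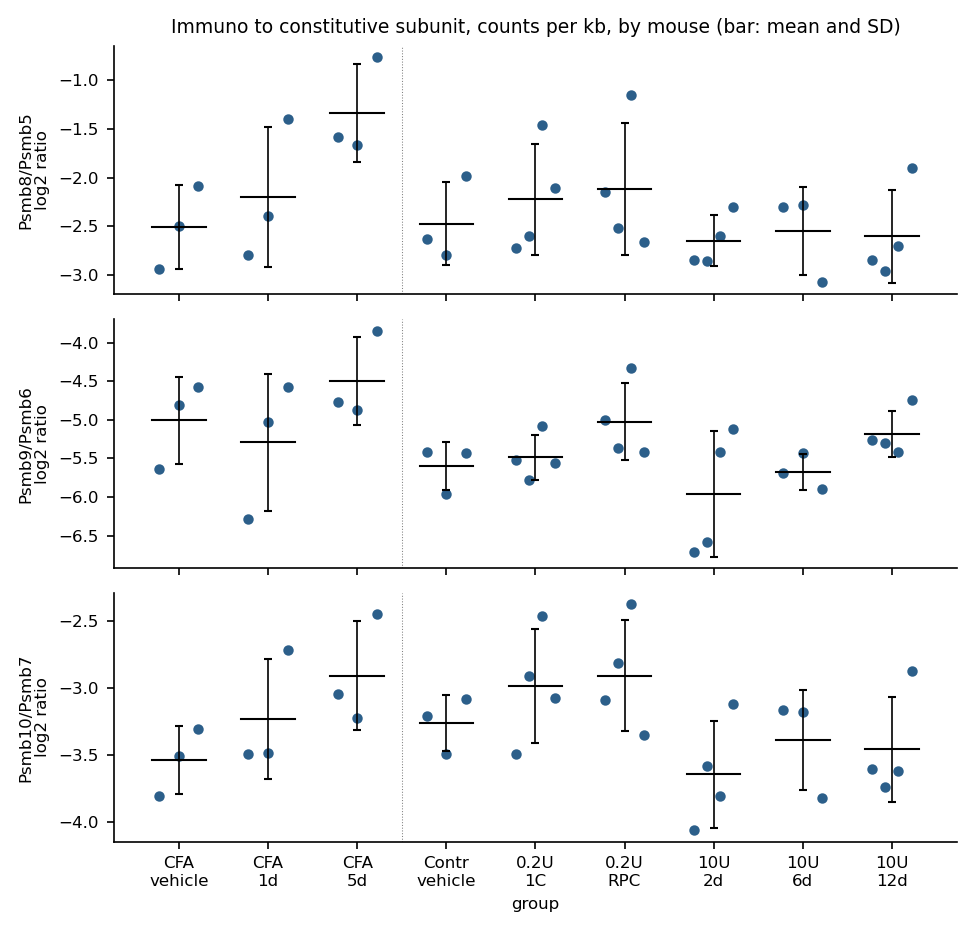
Log2 ratio of the immuno to the constitutive catalytic subunit, in counts per kb, for each mouse of the 9 groups, with mean and SD. Psmb8/Psmb5 at 5d post-CFA (-1.667 to -0.761) lies above its vehicle group (-2.937 to -2.081). All ratios are below 0, so per kb of exon the constitutive partner exceeded the immuno subunit in every mouse. In reads not divided by exon length, Psmb8 exceeded Psmb5 in some mice, whereas Psmb9 and Psmb10 stayed below their partners in all.

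After 0.2U Col no member passed the test in either group. In the 1C group edgeR called 0 of 41 members and 0% of 14493 genes, DESeq2 called 0 members, and no member was under an unadjusted p of 0.05 against 12.6% of all genes; the medians were -0.22 for constitutive and 0.11 for immuno members. Psmb3 and Psmb4, non-catalytic beta subunits, were split within the groups: Psmb3 was at 9.315 and 10.6 RPKM in replicates 1 and 2 of 1C but 3.045 and 3.321 RPKM in replicates 3 and 4, and at 3.761 RPKM in replicate 3 of Contr against 11.1 and 11.86 RPKM.

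In the RPC group most constitutive members lay on the negative side without passing the test. EdgeR called 0 members and 0% of 14269 genes, but 34 of 36 constitutive members were negative, and their median log2 fold change was -0.26 while that of the immuno members was 0.23. Under an unadjusted p of 0.05 were 9 constitutive members, all lower, and 7.15% of all genes in that direction. The groups did not overlap for 11 of 36, all lower in RPC, against 7.17% of all genes. Those of Psmd11 overlapped when scaled over all 31 libraries. Psmd8, a lid subunit, had the largest difference (-0.58 ± 0.14, SE) and was the only member that DESeq2's Wald test called. The summed skeletal muscle markers were lower in RPC as well, at 93420 to 123700 CPM against 127200 to 191900 CPM in Contr, and the salivary gland markers were at 26610 to 290600 CPM against 91.32 to 147400 CPM, with none of 9 apart. Of the adipocyte markers, 5 of 6 were apart and higher in RPC, against 4.93% of all genes. The 6 markers summed to 266.8 to 379.8 CPM against 42.84 to 134.7 CPM. The part of these cells was not tested.

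At 2d post 10U Col the result rested on replicate 4. With all 4 mice edgeR called 0 members, where 1.14% of 14373 genes were called higher and 1.08% lower; 5 constitutive members, Psma4, Psmc6, Psmd10, Psmd11 and Psmd14, and, in the lower direction, Psme1 were under an unadjusted p of 0.05, against 17.5% of genes in the higher and 15.8% in the lower direction, and DESeq2 called 4 members. Without replicate 4, 15 of 36 constitutive members (41.7%) were called higher and none lower, against 17.9% of 14160 genes called higher and 18.4% lower. That mouse was singled out in part by its low constitutive members, so leaving it out favours calls of members as higher. The fit is therefore a description and not independent support. The immuno members were all negative with all mice and without replicate 4 (medians -0.35 and -0.52), and none was called in either fit. Psme1 was called lower with 1 fit over all 31 libraries (-0.55, adjusted p = 0.0428) and with both vehicle groups pooled (-0.58, adjusted p = 0.0372). In these 2 settings 2549 of 15526 and 2447 of 14663 genes were called lower.

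The 15 members called only when replicate 4 was left out came from every part of the particle except the beta rings: Psma1, Psma4, Psma5 and Psma7 of the alpha ring, Psmc1 and Psmc6 of the base ATPases, Psmd2 and Psmd4 of the base, Psmd3, Psmd7, Psmd8, Psmd11 and Psmd14 of the lid, the assembly factor Psmd10 (gankyrin), and Psme3, the nuclear activator PA28 gamma. Psmd11, whose lid subunit is known to promote assembly of the capped particle, was at 21.51, 15.58, 16.56 and 5.684 RPKM in replicates 1 to 4 and at 6.757, 6.575 and 5.759 RPKM in Contr. Its log2 fold change was 1.498 ± 0.16 without replicate 4 (adjusted p = 0.00128) and 1.24 ± 0.39 with it (adjusted p = 0.0818). Psma4 was at 53.43, 43.72, 45.43 and 16.95 RPKM against 18.92, 21.67 and 18.31 RPKM in Contr. Replicate 4 thus lay below every Contr mouse for both genes, while the other mice lay far above. Psmb5, Psmb6 and Psmb7 were not called with or without replicate 4.

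Macrophage markers summed to 553.3 to 1439 CPM at 2d against 150.4 to 498.1 CPM in Contr. Of the skeletal muscle markers, 8 of 10 were apart and lower, against 12.5% of all genes. The 10 markers summed to 33950 to 77170 CPM against 127200 to 191900 CPM. Replicate 4 had the lowest macrophage sum and the highest muscle sum of its group. Their part in the member values was not tested.

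At 6d post 10U Col 4 constitutive members were higher than in Contr. These were Psma4, Psmc1, Psmc6 and Psmd10, and no constitutive member was called lower with all mice, although 10 of 36 were negative. At 11.1% of 36, this share was below the 14% of 14281 genes called higher (13.3% were called lower). The groups did not overlap for 7 constitutive members, all higher at 6d, against 24.8% of genes. Those of Psmd11 overlapped when scaled over all 31 libraries. The constitutive median was 0.13 and the immuno median -0.01 on the log2 scale.

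Psmc6 (chr14:45949504-45969367, plus strand), a base ATPase, was at 67.01, 84.73 and 92.56 RPKM at 6d and 32.28, 43.58 and 43.06 RPKM in Contr, a log2 fold change of 1.03 ± 0.21 (SE; adjusted p = 0.0144). Psma4 (chr9:54798597-54805837, plus strand), an alpha ring subunit, was at 30.72, 35.92 and 38.22 RPKM, with a log2 fold change of 0.83 ± 0.16 (adjusted p = 0.012). Both genes were apart from Contr in all 3 mice. Psmc1 (0.65 ± 0.20, adjusted p = 0.0475) and Psmd10 (0.65 ± 0.17, adjusted p = 0.0303) rose by less. Without replicate 2 of 6d none of the 4 was called, and with replicate 1 or 2 of Contr or replicate 3 of 6d left out, Psma4 and Psmc6 were the 2 called. Without replicate 3 of Contr, 3 members were called higher and 3, Psmb3, Psmb4 and Psmd9, lower. In that fit 3018 of 14050 genes were called higher and 2817 lower.

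The immuno members at 6d overlapped Contr in every case, and none was under an unadjusted p of 0.05 or called by DESeq2. Psmb8 was at 6.884, 9.981 and 5.281 RPKM against 6.456, 6.749 and 5.793 RPKM in Contr (0.22 ± 0.24, adjusted p = 0.512), and Psmb10 differed by -0.01 ± 0.22. Over the same mice the macrophage markers were called higher in 8 of 8 and summed to 1567 to 3148 CPM against 150.4 to 498.1 CPM, and 4 of 9 leukocyte markers were called higher. Skeletal muscle markers were at 39710 to 75610 CPM, 3 of 10 called lower, and salivary gland markers at 11.01 to 33.78 CPM. Their part in the member values was not tested.

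**Figure D5:**
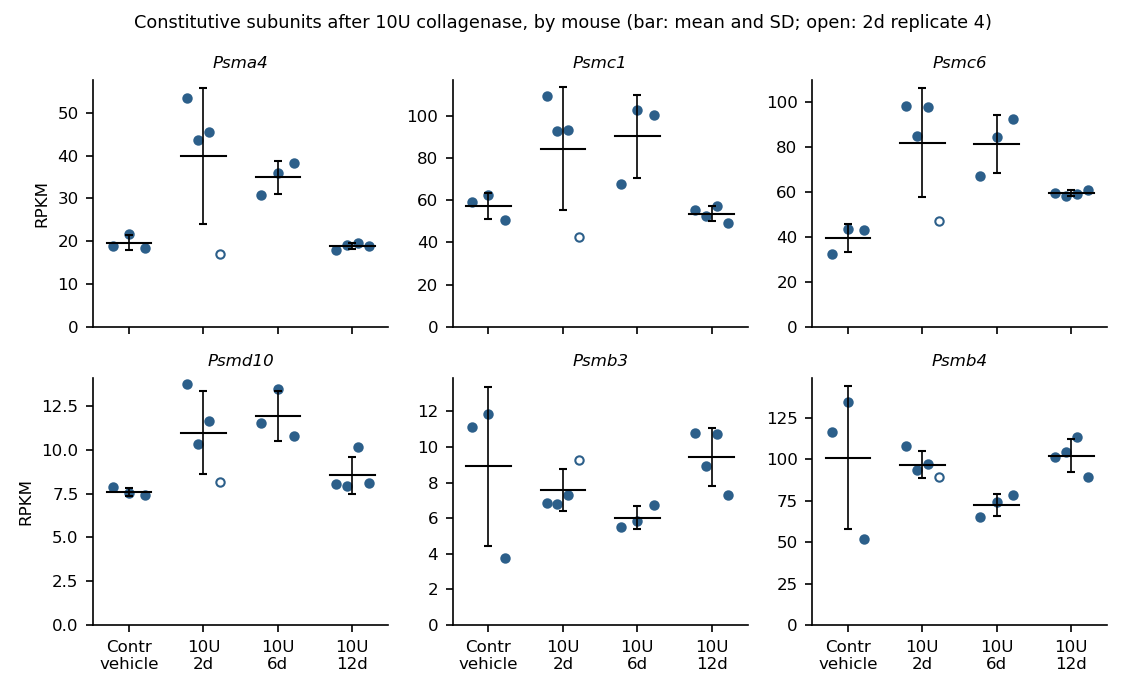
RPKM of 6 constitutive members in each mouse of Contr and of 10U Col at 2d, 6d and 12d, with mean and SD; the open point is replicate 4 at 2d. Psma4, Psmc1, Psmc6 and Psmd10 are high in 3 mice at 2d and in all mice at 6d, while Psmb3 and Psmb4 are lower at 6d than at 12d.

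At 12d post 10U Col no member differed from Contr by edgeR's test (0.762% of 14176 genes were called higher and 0.466% lower). Psmc6, Psmb2 and Psme3 were under an unadjusted p of 0.05, as were 17.4% of genes, and Psmc6, which DESeq2's Wald test called, was still at 58.39 to 61.16 RPKM against 32.28 to 43.58 RPKM in Contr (0.63 ± 0.17, adjusted p = 0.142). The medians were -0.11 for constitutive and -0.28 for immuno members.

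Between 6d and 12d, 10 constitutive members fell and 2 rose. EdgeR called 10 of 36 lower (27.8%), against 13% of 14344 genes, and 2 higher (13.4% of genes), with a median of -0.34 for the constitutive members and -0.14 for the immuno members, none of which was called or was under an unadjusted p of 0.05. The groups did not overlap for 15 constitutive members in the lower direction, against 18.7% of genes, and for 2 in the higher direction, against 17.9%. Those that fell were Psma4 and Psma5 of the alpha ring, Psmb2, Psmb5 and Psmb6 of the beta ring, Psmc1 and Psmc3 of the base ATPases, Psmd14, Psmd10 and Psme3. Psma4 fell by 0.87 ± 0.11 on the log2 scale (adjusted p = 0.0079), from 30.72 to 38.22 RPKM at 6d to 18.02 to 19.62 RPKM at 12d, and it was called whichever mouse was left out. Psmc1 fell by 0.74 ± 0.17 (adjusted p = 0.0221), and was at 67.36, 102.7 and 100.3 RPKM at 6d and 49.05 to 57.07 RPKM at 12d. Psmb5 and Psmb6, the catalytic subunits that Psmb8 and Psmb9 replace, fell by 0.51 ± 0.14 and 0.48 ± 0.14, whereas Psmb7 (-0.23 ± 0.17) did not pass.

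Psmb3 and Psmb4 went the other way. Psmb4 was at 65.07, 74.44 and 78.12 RPKM at 6d and 89.45 to 113.5 RPKM at 12d, a log2 fold change of 0.51 ± 0.14 (adjusted p = 0.0329). Psmb3 was at 5.527, 5.848 and 6.736 RPKM at 6d and 7.319 to 10.77 RPKM at 12d (0.66 ± 0.17, adjusted p = 0.0291). These are the genes that were split between mice of 1C and of Contr.

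The count of members called from 6d to 12d depended on single mice: it was 1, Psma4, without replicate 1, 2 or 3 of 12d or replicate 2 of 6d, 3 without replicate 3 of 6d, and 19 without replicate 4 of 12d. In replicate 4 of 12d the macrophage markers summed to 1141 CPM against 144.3 to 320.2 CPM in its group, and without this mouse Psmb8 (-0.80) and Psmb10 (-0.43) were also called lower than at 6d. Calls were common in that fit, with 4133 of 14194 genes lower and 3554 higher. With all mice, macrophage markers were called lower in 5 of 8 from 6d to 12d, and their part was not tested.

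From 2d to 6d no member passed with all mice (4.68% of 14513 genes were called higher and 4.05% lower), with Psmb10 and Psmb4 under an unadjusted p of 0.05 (26.6% of genes) and Psmb4 called by DESeq2. Without replicate 4 of 2d, 9 constitutive members were called lower (14.8% of 14234 genes) and Psmb10 higher (0.51 ± 0.15, adjusted p = 0.0407, where 14% of genes were). Leaving out this mouse, low in constitutive members, favours calls of a fall, so these 9 are not independent support. Psmb10 was at 9.553, 10.66, 9.4 and 11.52 RPKM at 2d and 14.56, 16.11 and 11.97 RPKM at 6d.

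The activators outside the immuno set differed. Psme3 was at 30.64, 36.78 and 36.19 RPKM at 6d and 21.64 to 25.45 RPKM at 12d, a fall of 0.52 ± 0.12 on the log2 scale (adjusted p = 0.0232). Psme4, the large activator PA200, was not called in any of the 9 comparisons as fitted with edgeR, with log2 fold changes from -0.33 to 0.27, but DESeq2 called it lower at 2d of 10U Col (-0.36), as did edgeR with both vehicle groups pooled (-0.48, adjusted p = 0.0291). In these 2 settings 1595 of 18099 and 2447 of 14663 genes were called lower.

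Over all 6 groups of the Col experiment, edgeR's F test found a difference among groups for 17 of 36 constitutive members and for Psme1. These 18 of 41 members were a lower share than the 58.5% of 15385 genes. The smallest values among members in this test were those of Psma4 (adjusted p = 0.000398) and Psmc6 (adjusted p = 0.000491). Over the 3 groups of the CFA experiment it found none (2.81% of 14363 genes), with 1 constitutive and 1 immuno member under an unadjusted p of 0.05. Tested as a difference of changes, the change at 6d of 10U Col exceeded that at 5d post-CFA for Psmc6, by 1.25 ± 0.28 on the log2 scale (adjusted p = 0.0187), and for Psma4, by 0.70 ± 0.19 (adjusted p = 0.0385), where 11.3% of 14892 genes passed. For 2d of 10U Col against 1d post-CFA no member passed (0.0946% of 14794 genes), with 2 members under an unadjusted p of 0.05. Between the vehicle groups edgeR called 0 members (0.0426% of 14070 genes), and none was under an unadjusted p of 0.05 (2.32% of genes).

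Of the genes that work with the proteasome, the lists moved with 10U Col only in part. Calls among the proteasome-associated factors at 6d included Rad23b, a shuttle for ubiquitinated substrates, which rose (0.73 ± 0.20), and Psmf1, the inhibitor PI31, which fell by 0.70 ± 0.17 on the log2 scale. From 6d to 12d 1 rose and 3 fell: Zfand5 rose by 0.93 ± 0.21, and Shfm1, a small lid subunit, the deubiquitinase Usp14 and Rad23b fell by between 0.51 and 0.80. The 5 assembly chaperones had 0 called at 6d and 2 called higher from 6d to 12d, Psmg2 and Psmg3. None of 6 genes of the Nfe2l1 pathway, which drives the response to proteasome shortage, was called in any comparison.

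Calls among ubiquitin genes and muscle ubiquitin ligases included Fbxo30, which rose at 6d (1.71 ± 0.31), and Ubb, a ubiquitin gene, which fell by 0.60 ± 0.17. From 6d to 12d they included Fbxo30, which fell by 1.01 ± 0.20. The atrophy ligases Trim63 and Fbxo32 were in this list and were not called in any comparison. At 5d post-CFA none of the 10 genes of the list was called, but 8 were negative. Of the 10, 5 were lower at an unadjusted p under 0.05, against 3.71% of all genes. The list summed to 1096 to 1265 CPM at 5d post-CFA and 1190 to 4384 CPM in the vehicle-treated mice of that experiment.

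Of 13 interferon-gamma response genes measured, Irf9 was the only one called at 5d post-CFA (1.53 ± 0.23, adjusted p = 0.0398), with 6 of 13 under an unadjusted p of 0.05, all positive. At 6d of 10U Col 3 were called higher, namely Ciita, Socs1 and Irf8, where 14% of all genes were, against 1.06% at 5d post-CFA. The median log2 fold change of the 13 was 0.59 at 5d post-CFA, 0.49 in RPC and 0.15 at 6d. Of 10 genes of MHC class I peptide loading, 0 were called at 5d post-CFA, but all 10 were positive, with a median of 0.49. Of these, 5 were under an unadjusted p of 0.05, against 10.3% of all genes in the higher direction. In the RPC group all 10 were positive as well, with a median of 0.67. EdgeR called none of either list in RPC, and 0% of all genes. At 6d of 10U Col 7 of 10 were positive, with a median of 0.22. The 3 called higher there were all chaperones of the endoplasmic reticulum: Pdia3 (1.34 ± 0.22), Canx (0.83 ± 0.18) and Calr (0.77 ± 0.20).

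The genes whose pattern was most like that of the immuno catalytic subunits were named by the Pearson r of centred log2 CPM with the mean of Psmb8, Psmb9 and Psmb10 over the 31 libraries, members left out, among 15485 genes. They included Tap1 (r = 0.866), which shares the interval shown above with Psmb9, Ifi47 (0.849), H2-Gs10 (0.826), Tap2 (0.825), Xaf1 (0.78), Tapbp (0.77), Igtp (0.751), Uba7 (0.751) and Ifit3 (0.748). At 5d post-CFA Tap1 had a log2 fold change of 1.49 ± 0.38 (adjusted p = 0.126), with groups apart.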

How the data were processed

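Gene-level read counts of 31 libraries (TruSeq stranded poly(A) libraries, single-end reads of 50 bases) were used as the authors deposited them; per the labels and the study's methods the authors aligned reads to mm9 with TopHat2 and counted unique alignments with HTSeq, whose strand setting is not given in the sources used here. Lines for unassigned reads were left out (34.6 to 47.9% of reads per library were not uniquely aligned), and no 2 libraries were identical. Groups were taken from the titles; Contr was taken as the vehicle of all Col groups. Separate mice are the replicates, and precision per gene follows from the counts, for example 65 to 363 reads for Psmb9.

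Each comparison was fitted alone with edgeR 4.0.16 in R 4.3.3 (TMM, quasi-likelihood test, a minimum of 10 counts in 3 of its libraries, Benjamini-Hochberg over all genes tested, call at an adjusted p under 0.05). CPM and RPKM were scaled by TMM over the 31 libraries, with exon lengths of the mm9 gene models. Ratios of pairs were tested by exact two-sided permutation over mice. "Apart" means that 2 groups' CPM, scaled by TMM within the comparison, do not overlap. The script was tested on simulated data. Alternatives were DESeq2 1.42.0, DESeq2 size factors or upper quartile scaling in edgeR, no filter, 1 fit over 31 libraries, a replicate block, pooled vehicle groups and leaving out each mouse; the block for ratios was added after seeing the data.

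The members and lists were chosen with earlier results of these data known. Genes named were the immuno members, their catalytic partners, Psme3, Psme4, Psma8, Psmb11, the called members and, per comparison, the constitutive members with the largest changes; other genes were named after their values were seen. Some genes of the context lists are not reported here.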

Additional observations from a re-analysis of the deposited data

Results flagged for a closer look

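The Psmb10/Psmb7 log2 ratio of replicate 4 at 12d post 10U Col was -2.876, apart from the other mice of its group at -3.739 to -3.607. It was the only such value in 60 sets of samples checked. Chance gives about 1 in 20 sets, so 1 in 60 is not more than chance would give. This is the mouse with 1141 CPM of macrophage markers, whose part was not tested.

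The difference between the change at 6d of 10U Col and that at 5d post-CFA passed edgeR's test for Psmc6 (1.25 on the log2 scale, adjusted p = 0.0187) and for Psma4 (0.70, adjusted p = 0.0385). The days, the agents and the vehicle groups differ between these changes and cannot be told apart.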

How the results depend on the processing

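The number of constitutive members called with edgeR was 0 at 2d of 10U Col, but 4 with DESeq2's Wald test, 7 with 1 fit over all 31 libraries, 7 with both vehicle groups pooled and 0 to 15 with 1 mouse left out (15 without replicate 4 of 2d, 1 without replicate 3 of Contr). At 6d it was 4, and 0 to 6 with 1 mouse left out. From 6d to 12d it was 12, against 19 with DESeq2, 4 with 1 fit over all libraries and 1 to 19 with 1 mouse left out. From 2d to 6d it was 0, against 1 with DESeq2 and 0 to 9 with 1 mouse left out, where the immuno members numbered 0 to 1. Calls over all genes were many in these settings too. At 2d DESeq2 called 1683 of 18099 genes higher and 1595 lower. The 1 fit called 2394 and 2549 of 15526 there, and the pooled vehicle groups gave 2596 and 2447 of 14663. From 6d to 12d DESeq2 called 2749 of 18292 genes higher and 2559 lower, and the 1 fit 1533 and 1677 of 15526. DESeq2 called 1 constitutive member in RPC and 1 at 12d, and 1 immuno member at 5d post-CFA, where leaving out 1 mouse gave 0 to 1 constitutive members (Psmb3, without replicate 3 of the vehicle group). With both vehicle groups pooled, the exact permutation p of the log2 ratio fell under 0.05 for Psmb8/Psmb5 (1.15, p = 0.0119) and Psmb10/Psmb7 (0.49, p = 0.0476) at 5d post-CFA and for Psmb10/Psmb7 in RPC (0.49, p = 0.0476), unadjusted. No direction reversed among the values called. The cause of these shifts was not tested.

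With the replicate block, 13 constitutive members were called at 2d and 2 at 6d, and the block gives replicate 4 of 2d and of 12d no weight. Over all genes the block called 2317 of 14373 higher and 2183 lower at 2d. At 6d it called 840 of 14281 higher and 633 lower. In no comparison did every same-numbered pair of mice have a correlation of deviations over 0.1 (mean r from -0.109 to 0.267). The highest mean was at 1d post-CFA, with r from 0.0891 to 0.451. No consistent pairing by number was seen, but 3 pairs per comparison cannot exclude one. Over all genes, 164 were called higher at 2d, 1683 with DESeq2 and 2394 with 1 fit over all libraries.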
